A study of Mus musculus with 3 samples.

Results

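The complement components and inhibitors examined here are 9 genes: C1ra, C1s1, C2, C3, C4b, Cfb, Serping1, Cd55 and Cd59a. They were read by 12 probes, and the 9 genes stand among 20279 genes with a named probe on the array. The members were chosen by their measured differences between the same 3 arrays that are described below. Their own differences are therefore a description, and no test was made of them. Primary mesenchymal stem cells (MSCs) were the source of the RNA. They are marrow stromal cells able to become bone, cartilage or fat, and were isolated from male mice aged 8 weeks and grown in αMEM with 10% FBS. The first group, MSC day 0, was taken before induction. The other groups were taken after 3 or 21 days with the osteogenic additives ascorbic acid (50 µg/mL) and β-glycerophosphate (10 mM). Each group was 1 array, hybridised in 1 colour, so no difference had a replicate check and no p-value was computed. How many animals or cultures fed each array was not given in the sources used here. No uninduced culture of 3 or 21 days was among the groups, so induction and time in culture cannot be told apart.

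Complement is a set of plasma and cell-surface proteins that mark particles for uptake, recruit leukocytes and puncture membranes. In the classical pathway, C1q binds a target and activates the paired proteases C1r and C1s. C1s then cuts C4 and C2, whose fragments form an enzyme that cuts C3. The alternative pathway cuts C3 with an enzyme built from factor B, which factor D activates. Host cells are shielded by soluble inhibitors such as C1 inhibitor and by membrane inhibitors such as CD55 and CD59. The liver makes most of the plasma proteins, and fibroblasts, macrophages and fat cells also make several of them.

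RefSeq promoter windows, 250 bases before to 50 after a gene's start in GRCm38.p6, were found for 5 of the 9 members. They are shown for 3 genes that were raised on both later days and for Cd59a, which was not, so that their letters can be read beside the values. Capitals mark matches, on either strand, to 4 motifs of factors that act in inflammation and interferon responses. The motifs were ISRE (GAAA, 2 bases of any kind, then GAAA), GAS (TTCNNNGAA), NF-kB (GGG, 5 bases of any kind, then CC) and C/EBP (TTGCNNAA). Each window is written 5′ to 3′ on the gene's own strand.
C3, chr17:57228087-57228386, minus strand: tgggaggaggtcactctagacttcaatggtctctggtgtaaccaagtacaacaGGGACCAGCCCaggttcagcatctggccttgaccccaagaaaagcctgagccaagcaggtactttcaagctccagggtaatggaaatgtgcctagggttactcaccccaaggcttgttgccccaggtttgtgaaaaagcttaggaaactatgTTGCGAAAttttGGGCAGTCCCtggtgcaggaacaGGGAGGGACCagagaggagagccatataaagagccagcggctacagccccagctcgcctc
C1ra, chr6:124512371-124512670, plus strand: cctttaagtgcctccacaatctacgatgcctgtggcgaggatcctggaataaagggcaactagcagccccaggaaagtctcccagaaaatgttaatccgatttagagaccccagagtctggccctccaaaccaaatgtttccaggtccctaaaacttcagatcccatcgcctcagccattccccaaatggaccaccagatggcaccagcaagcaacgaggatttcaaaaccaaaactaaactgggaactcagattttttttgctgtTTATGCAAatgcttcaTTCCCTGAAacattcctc
C1s1, chr6:124542310-124542609, minus strand: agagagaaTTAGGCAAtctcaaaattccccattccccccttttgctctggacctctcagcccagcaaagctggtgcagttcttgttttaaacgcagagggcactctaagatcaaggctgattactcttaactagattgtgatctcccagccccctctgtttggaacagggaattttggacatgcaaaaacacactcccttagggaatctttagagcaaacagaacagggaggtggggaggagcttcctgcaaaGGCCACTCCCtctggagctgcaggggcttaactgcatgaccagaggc
Cd59a, chr2:104095551-104095850, plus strand: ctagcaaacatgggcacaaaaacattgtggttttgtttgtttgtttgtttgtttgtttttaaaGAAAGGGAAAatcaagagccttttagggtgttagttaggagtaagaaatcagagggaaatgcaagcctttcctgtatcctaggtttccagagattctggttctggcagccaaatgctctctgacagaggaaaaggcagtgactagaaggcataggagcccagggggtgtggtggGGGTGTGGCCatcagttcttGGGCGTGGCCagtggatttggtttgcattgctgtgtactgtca

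Positions are counted from the start site, which is base 1, with no base 0. The C/EBP motif matched in 3 of the 6 windows of the members (C1s1 has 2 starts), against 10.8% of all 32851 windows in the table. Those matches began at -45 in C3 (TTGCGAAA), at 17 in C1ra and at -242 in C1s1. The other C1s1 window, which is not shown, held no C/EBP match. The NF-kB motif matched in 5 of 6 windows, but 50.8% of all windows hold it. The 2 C1s1 windows overlap, and the same NF-kB match (GGCCACTCCC) was counted in both. C3 held 4 NF-kB matches, of which the first pair overlap by all but 1 base. The GAS motif matched at 33 in C1ra alone (8.30% of all windows), and the ISRE motif at -187 in Cd59a alone (3.44%). A match describes letters and is not a binding site. The 3 raised genes and the flat Cd59a all held at least 1 match, and the flat Cd55 held 4 NF-kB matches.

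Across the array, 63.8% to 66.2% of the named genes were well above background, which is the scanner software's own mark. Day 0 and day 21 shared slide 1 and scan 1, and the day 3 array was on slide 2 and scan 2. Values are spot intensities, given first as the processed signal of a probe on a linear scale. Differences are log2 differences after each array was scaled to its 75th percentile. The percentiles were close, 172.2, 174.6 and 190.7 in order of day. The software's own error of a difference had a median of 0.20, and probes spotted 10 times gave a technical SD of 0.17. Both cover the array alone, not cultures or animals. With the arrays scaled to their spike-in controls instead, the median of all genes at day 3 against day 0 moved by -0.71, and the members' differences moved with it. In bulk RNA, more cells of a type and more RNA per cell cannot be told apart.

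The 7 secreted members were higher at day 3 than at day 0 and higher again at day 21, while the membrane inhibitors Cd55 and Cd59a stayed within 2-fold on every pair of days (Cd59a passed 2-fold lower at day 3 on the spike-in scale). By day 3, 7 of 9 members were at least 2-fold higher and 0 were lower. Over all genes with a value, 9.32% were higher and 8.54% lower by the same rule. By day 21 the count against day 0 was again 7 higher and 0 lower, against 15.4% higher and 17.7% lower over all genes. Between day 3 and day 21, 7 members were higher and 0 lower, against 8.99% and 8.24%. These members were picked for such differences, so nothing is read from the counts against their background. The median over the measured members was 2.78 for day 3 against day 0 (8 genes), where the median of all measured genes was -0.08. It was 4.71 for day 21 against day 0 (8 genes), beside -0.21 for all genes, and 2.28 for day 21 against day 3 (9 genes), beside -0.10. The comparisons share arrays, so they are not separate evidence of each other.

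**Figure D1:**
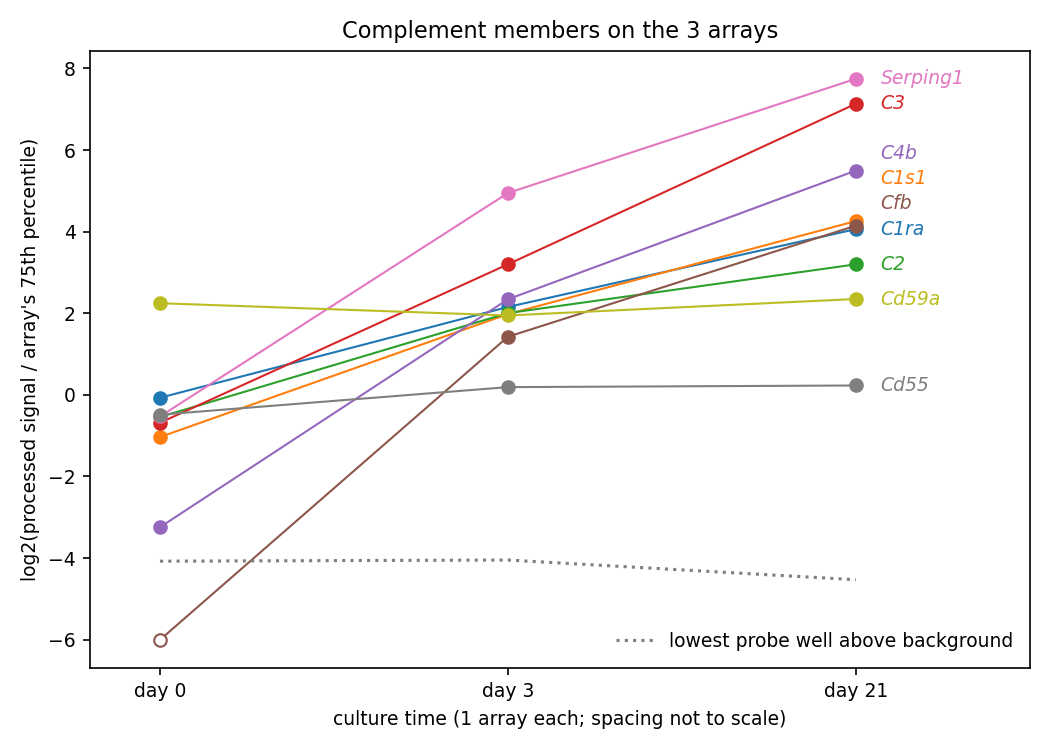
Log2 of the processed signal over each array's 75th percentile (vertical axis) at day 0, day 3 and day 21 (horizontal axis, 1 array each, not spaced to scale) for the 9 members. The open circle is Cfb at day 0, not well above background, the dotted line is the lowest probe well above background on each array, and levels of different probes are not comparable. The lines of 7 members climb on both steps, and those of Cd55 and Cd59a run nearly level.

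The classical pathway's proteases and their inhibitor were read by 5 probes. C1ra, the mouse C1r protease, had a signal of 164 at day 0, 776 at day 3 and 3182 at day 21. Its second probe read 129, 644 and 2483. Both probes climbed on each step, and they gave near-equal differences. The difference from day 0 was 2.23 at day 3 and 4.13 at day 21 (software error 0.21 each), or 4.68-fold and 17.5-fold. The second probe gave 2.30 and 4.11.

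C1s1, the C1s protease that cuts C4 and C2, had a signal of 84.0 at day 0, 688 at day 3 and 3652 at day 21. It was thus lowest at day 0 and highest at day 21. It was 8.08-fold higher at day 3 (3.01, error 0.21) and 39.2-fold higher at day 21 (5.29, error 0.21). With normexp, another background correction, these were 2.19 and 4.37. C1s1 differed more than its partner C1ra by 0.79 at day 3 and 1.16 at day 21 on the log2 scale (error of the gap 0.29). With normexp C1ra was at 1.92 and 3.71, and the gap was 0.27 at day 3, under its error, and 0.66 at day 21.

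Serping1 encodes C1 inhibitor, the serpin that inactivates C1r, C1s and the lectin pathway's proteases. Its probe read 119, 5384 and 40943 at day 0, 3 and 21. A second probe read 57.8, 2174 and 16320.1. Most of its log2 difference was present by day 3 (66.2% of the day 21 difference, or 65.2% by the second probe). Serping1 was 44.6-fold higher at day 3 (5.48, error 0.21) and 310.1-fold higher at day 21 (8.28, error 0.21). The second probe gave 37.1-fold and 255-fold.

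The inhibitor differed more than the proteases that it blocks. Its difference exceeded that of C1ra by 3.25 at day 3 and 4.14 at day 21, and that of C1s1 by 2.46 and 2.98 (error of each gap 0.29). From day 3 to day 21 the gap was smaller, at 0.89 over C1ra and 0.52 over C1s1. The gap over C1s1 on that step is under 2 of its errors. These are gaps between differences, and the relative amounts of inhibitor and protease RNA cannot be read from separate probes.

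C4b and C2 are the substrates of C1s. C4b, whose product attaches covalently to the target surface, had a signal of 18.2 at day 0, 885 at day 3 and 8604 at day 21. The day 0 signal was well above background, though low. C4b was 48.0-fold higher at day 3 (5.59, error 0.27) and 427-fold higher at day 21 (8.74, error 0.27). With normexp these were 3.69 and 6.85. From day 3 to day 21 it was 8.90-fold higher (3.15, error 0.20). C4a, a close copy of C4b, had no named probe, and whether the C4b probe also reads C4a was not tested.

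C2, the protease that joins C4b in the enzyme that cuts C3, had a signal of 118 at day 0, 699.7 at day 3 and 1750.2 at day 21. It climbed on both steps, more by day 3 than afterwards. It was 5.84-fold higher at day 3 (2.55), 13.4-fold higher at day 21 (3.74) and 2.29-fold higher between those days (1.20, error 0.20). On each pair of days C2 differed less than C4b, by 3.04, 5.00 and 1.96 in order of day 3 and day 21 against day 0, then day 21 against day 3. Of the 7 raised members, C2 had the lowest difference between day 3 and day 21.

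C3, the central protein on which all the pathways meet, was read by 2 probes. The probe used here had a signal of 107 at day 0, 1603 at day 3 and 26777 at day 21. The other probe was spotted 10 times and had a mean of 29.2 at day 0, 2530 at day 3 and 42851 at day 21.
Both probes climbed on each step, but they disagree about the size of the first one. The used probe was 14.8-fold higher at day 3 (3.88, error 0.21) and 226-fold higher at day 21 (7.82). The probe of 10 spots was 85.4-fold (6.42, error 0.24) and 1324-fold higher (10.37). The gap between the probes was 2.53 at day 3 and 2.55 at day 21, far over their errors, while between day 3 and day 21 they gave 3.93 and 3.95. The disagreement thus lies in the day 0 reading. At day 0, 9 spots of the second probe ranged from 23.5 to 37.7, and a spot marked as an outlier, left out, read 88.4. At day 3 its 10 spots ranged from 2403 to 2604, and at day 21 from 41777 to 44238. Which probe reads C3 at day 0 more truly was not tested, and 14.8-fold and 226-fold are the smaller of the pairs.

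Cfb encodes factor B, the protease of the alternative pathway's enzyme. Its signal was 2.68 at day 0, which was not well above background, 468 at day 3 and 3377 at day 21. Only the later days thus gave a measured level. Against the lowest signal that was well above background at day 0, Cfb was at least 45.3-fold higher at day 3 and at least 299-fold higher at day 21. With normexp the log2 bounds of 5.50 and 8.22 became 3.01 and 5.47. Such a bound takes, after scaling, whichever is higher of that lowest signal and the dim probe itself. Between day 3 and day 21 Cfb was measured on both arrays and was 6.60-fold higher (2.72, error 0.20).

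**Figure D2:**
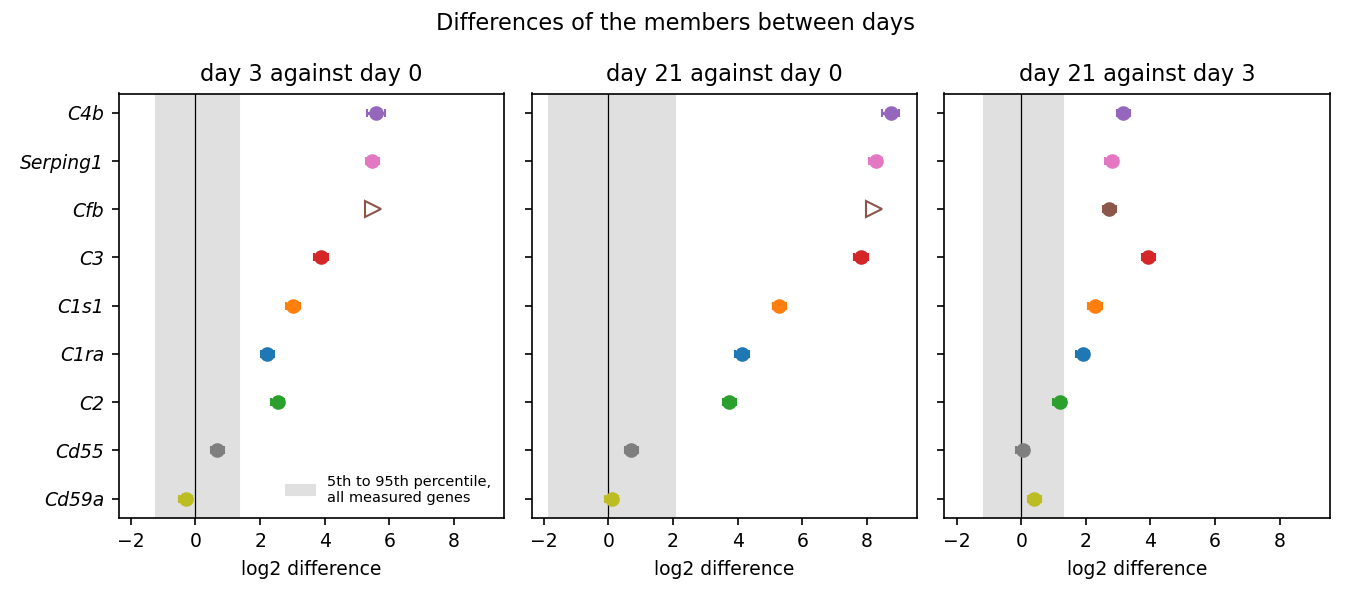
Log2 difference (horizontal axis) of each member between days, 1 panel for each pair of days, with bars for the software's error of 1 SD and open triangles for Cfb's lower bounds. The grey band is the range from the 5th to the 95th percentile of all measured genes. C1ra, C1s1, C3, C4b, Serping1 and Cfb lie to the right of the band in each panel, C2 lies within it only between day 3 and day 21, and Cd55 and Cd59a lie within it throughout.

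The membrane inhibitors behaved otherwise. Cd55, decay-accelerating factor, takes apart the enzymes that cut C3, and it read 123, 199 and 223 at day 0, 3 and 21. It was 1.60-fold higher at day 3 (0.68, error 0.21) and 1.64-fold higher at day 21 (0.72, error 0.21), and 0.04 separated the later days. That step up by day 3 did not reach 2-fold. With the spike-in controls as the scale the day 3 difference was -0.03, so its direction depends on the scaling.

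Cd59a, which stops the membrane attack complex from closing, had a signal of 817 at day 0, 672 at day 3 and 971 at day 21. The lowest value was at day 3 and the highest at day 21. Its differences were -0.30 at day 3, 0.10 at day 21 and 0.40 between those days (error 0.20 each). The first is 1.23-fold lower and the last 1.32-fold higher. On the spike-in scale Cd59a was at -1.01 at day 3, past 2-fold lower, and at -0.16 at day 21.

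The gap between C3 and these inhibitors was wide on each pair of days. C3's difference exceeded that of Cd55 by 3.21 at day 3 and 7.10 at day 21, and that of Cd59a by 4.18 and 7.72 (errors 0.29). A gap of this kind does not depend on an array's scale factor. Cr1l, the mouse Crry protein that protects rodent cells from C3 deposition, was also near level. It read 2094, 2254 and 2613 at day 0, 3 and 21, a difference of 0.09 and then 0.17 from day 0.

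Among the members the order of the differences at day 3 was C4b, Serping1, C3, C1s1, C2, C1ra, Cd55 and Cd59a, with Cfb known by its bound alone. C4b and Serping1 did not differ by more than 2 errors of their gap, and nor did C1s1 and C2, or C2 and C1ra. At day 21 against day 0 the order was C4b, Serping1, C3, C1s1, C1ra, C2, Cd55 and Cd59a. There C4b and Serping1, Serping1 and C3, and C1ra and C2 were within 2 errors as neighbours. Between day 3 and day 21 C3 led, at 3.93, and stood 0.78 above C4b (error 0.29). C4b, Serping1, Cfb, C1s1 and C1ra then followed, each within 2 errors of its neighbour, and C2, Cd59a and Cd55 came last. With the 10-spot probe, C3 would lead the measured members on each pair of days. The top of the order against day 0 also rests on the background correction. With normexp Serping1 (4.90 at day 3 and 7.72 at day 21) stood above C4b (3.69 and 6.85), and C3 was at 3.32 and 7.27 by the probe used here and at 4.80 and 8.76 by the 10-spot probe.

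Among all measured genes, C4b ranked 8 and Serping1 9 from the most raised of 12455 at day 3. At day 21 they ranked 5 and 7 of 12387, and C3 ranked 14. C1s1 ranked 137 and then 68, C1ra 280 and 147, and C2 205 and 198. Cd55 ranked 1602 and 2155, and Cd59a 8153 and 4346. Past 8-fold against day 0 lay 4 of the 8 measured members at day 3 and 6 at day 21. Of all measured genes, bounds left out, 1.12% and 2.52% lay there. Cfb was past 8-fold by its bound on both days.

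**Figure D3:**
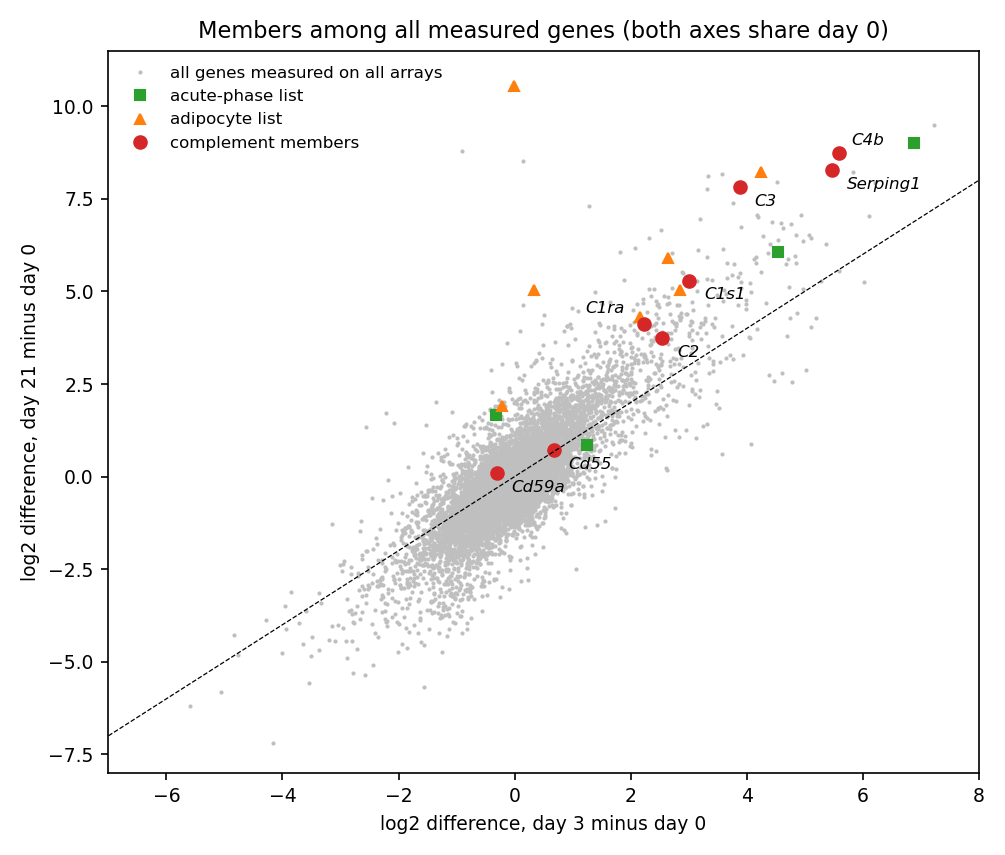
Log2 difference from day 0 at day 3 (horizontal axis) and at day 21 (vertical axis) for each gene measured on the 3 arrays (grey), with 8 members in red, the acute-phase list in green and the adipocyte list in orange. Both axes share the day 0 array, and the dashed line marks equal differences. The 6 raised members shown lie above the line at the upper right, with Cd55 and Cd59a inside the main cloud.

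The share of a member's day 21 log2 difference that was already there at day 3 ran from 49.7% (C3, or 61.9% by its second probe) to 68.1% (C2). C1ra stood at 53.8%, C1s1 at 56.9% and C4b at 63.9%. The median over these 6 members was 60.4%. Over all 310 genes measured on each array and raised at least 8-fold by day 21, the median was 63.8%, with quartiles of 47.7% and 76.0%. The members thus lay within the middle of genes with a rise of that size. The adipocyte genes of that kind had a median of 47.3% (6 genes).

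The rest of the pathway comprised 51 other genes on a list written for this description. Of these, 48 had a named probe, 19 were dim, that is not well above background, on every array, and 3 (C4a, C7 and Cfhr3) had none. At day 3, 23 had a value, of which 11 passed 2-fold upward and 1 downward. Over all genes with a value, 9.32% were higher and 8.54% lower. At day 21 against day 0, 29 had a value, of which 14 were higher and 2 lower, against 15.4% and 17.7%. Between day 3 and day 21, 28 had a value, with 8 higher and 3 lower, against 8.99% and 8.24%. The medians over those measured were 1.0, 1.08 and 0.27. The same shares apply to the counts of every list below. All lists were chosen with earlier results known, so nothing is read from such counts.

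In the classical pathway, the recognition subunits did not follow the proteases. C1qa and C1qc were dim on every array. C1qb had a low signal of 20.4, 20.1 and 25.6 at day 0, 3 and 21, with differences of -0.04 and 0.18 from day 0. The duplicate proteases were close to their partners. C1rb, beside C1ra, had a signal of 22.2, 71.9 and 343 at day 0, 3 and 21, or 1.67 and 3.80 from day 0. C1s2, beside C1s1, had 88.9, 800.5 and 3859, or 3.15 and 5.29. The pairs are near-identical in sequence, and cross-reading between their probes was not tested, so the members' values may hold signal of both copies. The second C1s2 probe was dim on every array. C1rl, a C1r-like protease, was 0.94 and 1.49 from day 0.

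In the lectin pathway, which recognises sugars, few genes were measured. Mbl1, Fcna and Fcnb were dim on every array. Mbl2, a mannose-binding lectin, was higher by at least 1.63-fold at day 3 and 2.94-fold at day 21. The protease Masp1 was well above background only at day 21, at least 2.12-fold over day 0, and Masp2 and Colec11 had bounds under 2-fold. Of the collectins, Colec12 was at 2.18 on both later days. Colec10 was at 1.47 and then 0.35, which put it 1.12 lower at day 21 than at day 3. Its signal was only 26.6, 74.7 and 37.6 at day 0, 3 and 21.

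The alternative pathway's members C3 and Cfb were joined late by factor D. Cfd, also named adipsin for its high level in fat cells, had a signal of 46.8 at day 0, 47.2 at day 3 and 77159 at day 21. It was level by day 3 (-0.01, error 0.34) and 1490-fold higher at day 21 (10.54, error 0.34). C3 and Cfb, by contrast, were already at 1603 and 468 by day 3. Cfp, properdin, which steadies the enzyme that cuts C3, was -0.52 and -0.58 from day 0.

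The terminal pathway, which builds the pore, was mostly dim. Hc (the mouse C5 gene), C8a, C8b and C9 were dim on every array. C6 was seen at day 21 alone, at least 1.996-fold over day 0 and so just short of 2-fold. C8g, a lipocalin that belongs to the C8 complex, was 2.10 and 3.28 from day 0, and its second probe gave 1.08 and 1.65.

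Of the other soluble inhibitors, Clu was raised on both later days like Serping1. Clu, clusterin, a chaperone that also blocks the pore, had a signal of 428, 7852 and 62925.5 at day 0, 3 and 21, which was 18.1-fold and then 133-fold over day 0.
C4bp, a C4 inhibitor, was highest at day 3, with 43.9, 269 and 103, or 2.60 and then 1.08 from day 0. Cfi, the protease that cuts C3b and C4b apart, was seen at day 21 alone, at least 2.92-fold over day 0. Cfhr2 was 0.58 and 0.35 from day 0 by the brighter probe but 1.37 and 3.27 by the other, so whether it passes 2-fold rests on the probe. Vtn, Cpn1 and Cpn2 were dim on every array.

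Of the other membrane inhibitors, the paralogs of the members differed a little more than the members. Cd55b had a signal of 32.6, 75.05 and 109 at day 0, 3 and 21, or 1.18 and 1.60 from day 0. Cd59b had 28.8, 61.6 and 69.9, or 1.08 and 1.13. Those probes are near the low end of measured signals. Susd4 was at -0.01 and 0.29, Csmd1 was seen at day 21 alone and Cd46 was dim on every array. Over the group's 8 genes, members included, 2 were at least 2-fold higher against day 0 on each later day and 0 lower. At day 3, 6 of the 8 were measured, and at day 21 6 were measured and 1 had a bound. Over all genes with a value, 9.32% were higher at day 3 and 15.4% at day 21.

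Of 10 receptors for complement fragments, 5 had a signal. C3ar1, C5ar1, Cr2, Itgax and Vsig4 were dim on every array. C5ar2, a C5a receptor, was 1.0 and 0.54 from day 0 at a low signal of 18.5, 37.6 and 29.8. Cd93 was seen only at day 0, and was at least 3.99-fold lower at day 3 and at least 5.57-fold lower at day 21. C1qbp, a C1q-binding protein found mainly in mitochondria, was at -0.38 and then -1.305 from day 0. Itgb2, the shared chain of CR3 and CR4, was 1.0 lower at day 21 than at day 3 and 0.45 lower than at day 0. Its partner Itgam was 0.53 higher than at day 0 by the brightest of its 3 probes.

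**Figure D4:**
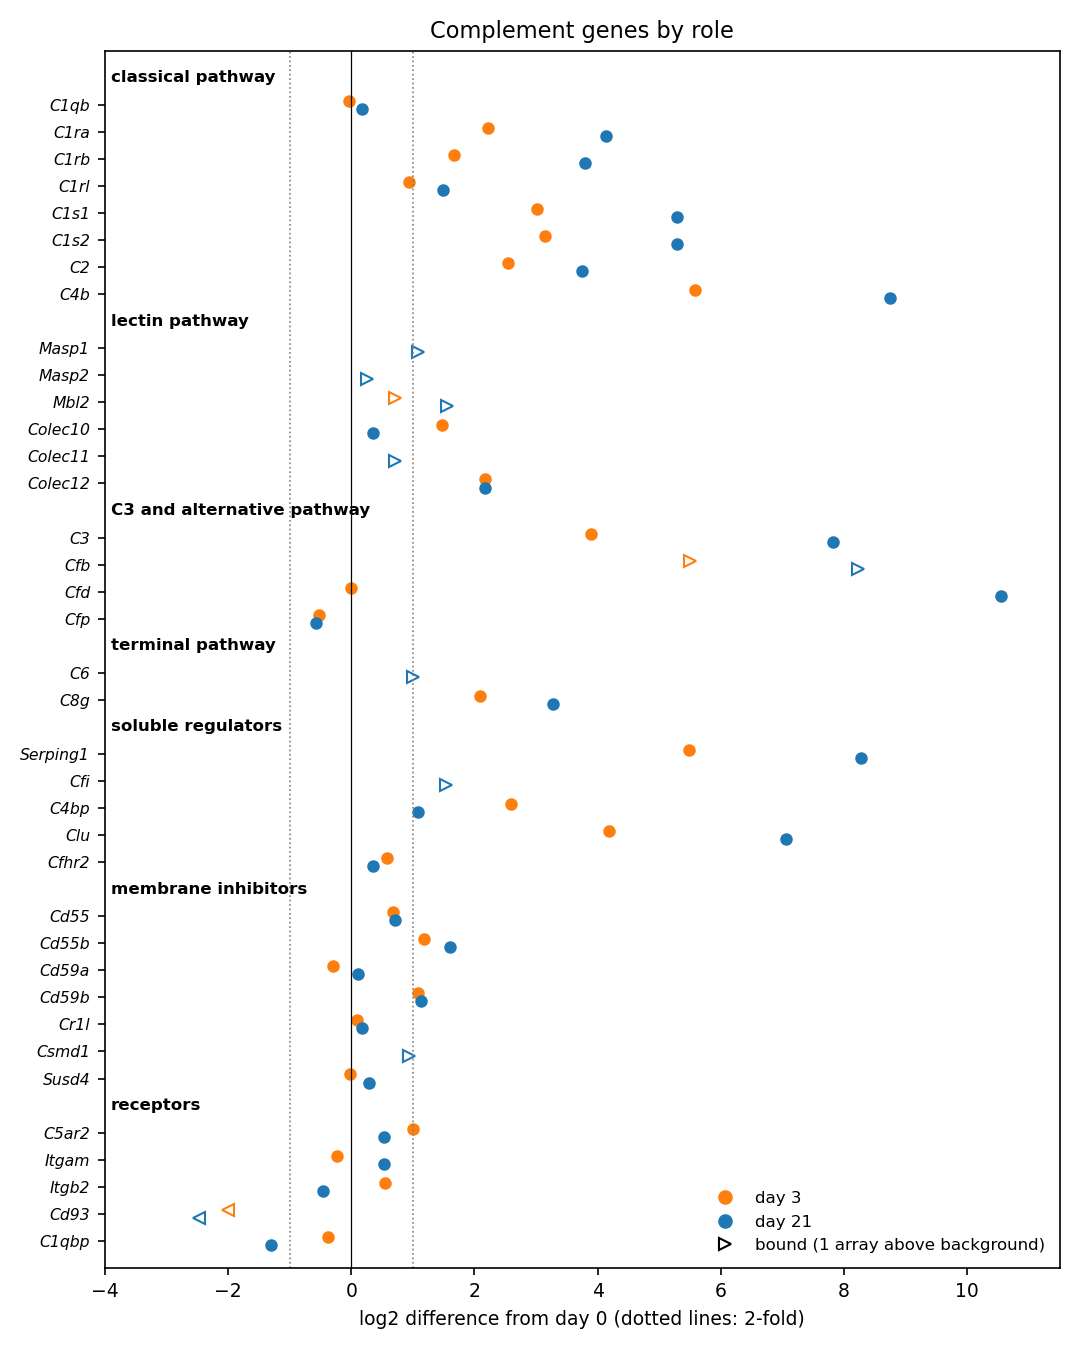
Log2 difference from day 0 (horizontal axis) at day 3 (orange) and day 21 (blue) for complement genes with a value, grouped by role, with 1 array for each day. Open triangles are bounds, and dotted lines mark 2-fold. C1ra, C1rb, C1s1, C1s2, C3, C4b, Serping1 and Clu lie to the right, Cd55, Cd59a and Cr1l lie within the dotted lines, Cd55b and Cd59b just above them, and Cd93 to the left. Cfd is near 0 at day 3 and at 10.54 at day 21.

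C2, Cfb and C4b lie close together in the class III part of the MHC on chromosome 17. Genes around them were read in the same way, to see whether the whole stretch was raised. Of 11 other genes in it, 10 were measured, and against day 0 only Tnxb was at least 2-fold higher, at 1.29 and 1.77. None was 2-fold lower. Their medians were 0.48 at day 3 and 0.10 at day 21. Nelfe, beside Cfb, was at -0.09 and -0.48, and Cyp21a1, beside C4b, at 0.62 and -0.60. No neighbour there reached the difference of C2, the least raised of the 3 members, which was 2.55 and 3.74.
C1ra and C1s1 lie on chromosome 6 beside their duplicates. Of the 6 other genes in that stretch, C1rb and C1s2 had passed 2-fold by day 3, and Clstn3 (2.26) and C1rl (1.49) joined them at day 21. Pex5 and Lpcat3, at the ends, were at -0.18 and 0.61 at day 21. Beside Serping1, Ube2l6, an enzyme of ISG15 conjugation, was at 2.09 and 2.04. The other measured genes near Serping1 were not raised 2-fold. Zdhhc5 was at -0.78 and -0.55, Clp1 at 0.14 and 0.12 and Timm10 at -0.38 and -0.48.

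**Figure D5:**
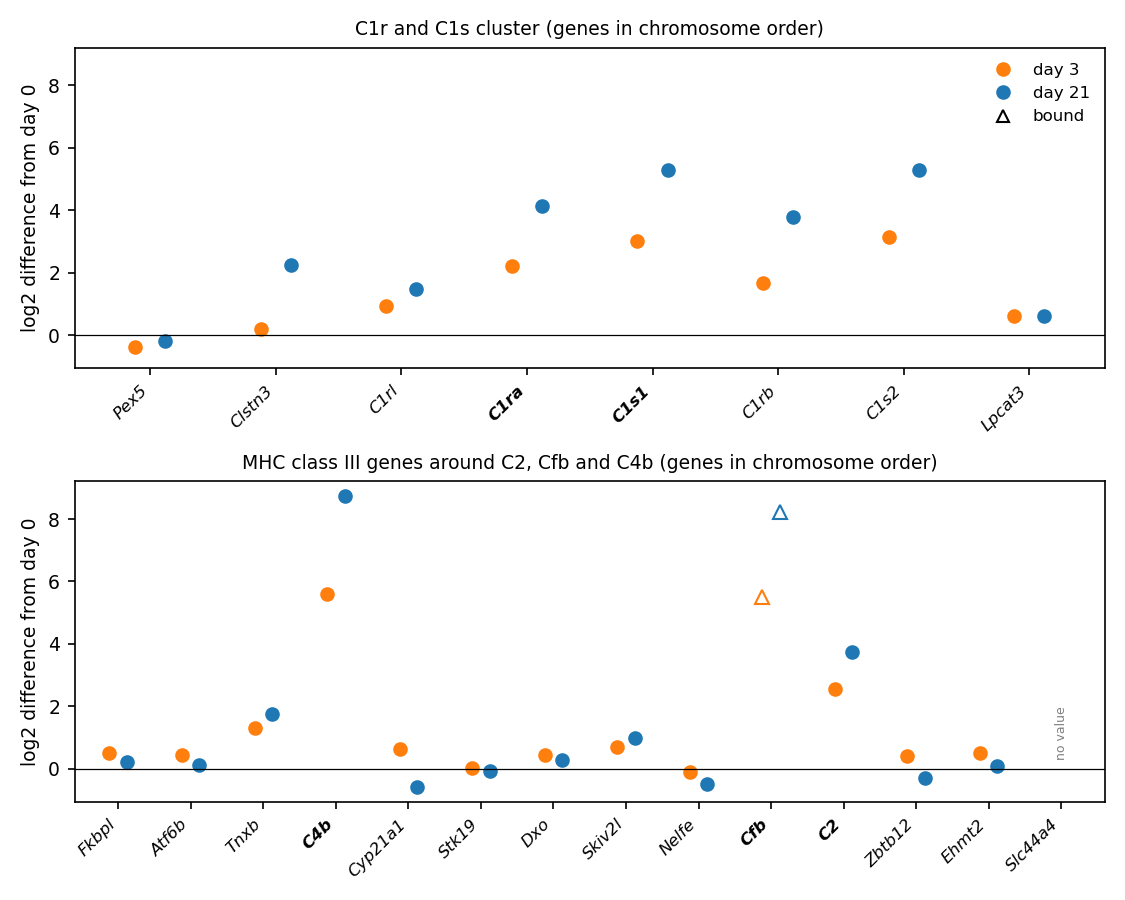
Log2 difference from day 0 (vertical axis) at day 3 (orange) and day 21 (blue) for genes in chromosome order around C1ra and C1s1 (top) and around C4b, Cfb and C2 (bottom), members in bold, bounds as open triangles, with 1 array for each day. Only C1r- and C1s-related genes and Clstn3 stand above 1 in the top stretch, and the members and Tnxb in the bottom one.

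Complement genes are targets of the acute-phase and interferon responses, so acute-phase genes and a list of regulators were read beside the members. No list of interferon target genes was read. Of 17 acute-phase genes, 16 had a named probe. At day 3, 4 of them were measured and 5 had a bound, and at day 21 4 and 9. Against day 0, 8 had passed 2-fold upward and 0 downward at day 3, and 10 and 0 at day 21. Over all genes with a value, 9.32% were higher and 8.54% lower at day 3, and 15.4% and 17.7% at day 21. Haptoglobin (Hp) was at least 1584-fold higher at day 3, Slpi, a protease inhibitor, at least 693-fold, and Serpina3n at least 127-fold. Lcn2, which binds iron carriers, was measured throughout and was 118-fold higher at day 3 (6.88). The liver products Apcs, Crp and Fgb were dim on every array.

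A list of 29 regulators held interferon, cytokine, NF-kB and C/EBP factors and receptors. Against day 0, 25 of them were measured and 2 had a bound on each later day. At day 3, 11 of them passed 2-fold upward and 0 downward, and at day 21 16 and 1. Over all genes with a value, 9.32% and 15.4% were higher on those days, and 8.54% and 17.7% lower. Between day 3 and day 21, 27 were measured. Of those, 3 passed upward and 3 downward, where 8.99% and 8.24% of all genes with a value did. The median on that step was -0.06, whereas the members' median was 2.28. Irf7, the interferon factor, was at least 21.8-fold higher at day 3 and lower again at day 21, with a signal of 9.95, 226 and 71.0 at day 0, 3 and 21. Irf9 was at 3.19 and then 2.15, Cebpd at 3.11 and 2.84, and Socs3 at 3.06 and 2.36. Cebpa, a C/EBP factor of fat and liver cells, was at 2.86 and 5.03. Nr1h3, the sterol receptor LXRα, was at 3.85 and 5.40. Stat3, Rela and Nfkb2 were within 2-fold on both days. The 3 that passed upward between day 3 and day 21 were Cebpa, Nr1h3 and Ifngr1, and the 3 that passed downward were Irf7, Irf9 and Stat2.

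By distance over the steps from day 0 to day 3 and from day 3 to day 21, the genes nearest to the members' median pattern (2.78, then 2.09) were Cebpa at 0.11, Angptl4 at 0.14, G0s2 at 0.17, Plpp3 at 0.18 and Gpm6b at 0.25. The search ran over 12221 genes measured on the 3 arrays. Nearest to C3, by the probe used here, were Rarres2 (0.32), Fabp4 (0.37) and Apoe (0.70). By the 10-spot probe they were Ifi27l2a (1.67), Sult1a1 (1.86) and Lcn2 (1.88) instead, so the neighbours of C3 rest on the choice of probe. Nearest to Serping1 were Ifi27l2a (0.53), Ramp2 (0.85) and Col14a1 (1.03), so few genes shared a step of its size. Nearest to Cd55 were Ctsh (0.015), Scap (0.019) and Klhl17 (0.026), which sit in the dense cloud of small differences. A likeness over 3 arrays carries little weight.

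Markers of other cell types that can make complement were read on the same arrays. Most macrophage markers were dim or level. Of 18, 17 had a named probe, and 6, 6 and 7 of those were well above background at day 0, 3 and 21. Ptprc (CD45), Adgre1 (F4/80), C1qa and C1qc were dim on every array, and Csf1r was at 0.45 and -0.02 from day 0. Against day 0, 1 marker passed 2-fold upward at day 3 (Cd14, at 1.46) and 2 at day 21 (Cd14 at 2.22 and Lyz2 at 1.55). None passed downward. At day 3, 6 were measured, and at day 21 6 were measured and 1 had a bound. Over all genes with a value, 9.32% were higher at day 3 and 15.4% at day 21. The list shares its C1q genes and Itgam with the complement list. The summed scaled signal of the list, each probe over its array's 75th percentile, was 60.3, 54.1 and 86.8 at day 0, 3 and 21. A single Itgam probe, whose gene's other probes disagree with it, held 88.2% to 93.0% of that sum, and without it the sum was 4.36, 6.39 and 6.07. Granulocyte markers summed to 81.2, 51.9 and 65.3, with 4, 3 and 5 of 9 well above background, and to 4.70, 6.56 and 4.58 without Csf3r. Endothelial markers summed to 21.1, 28.5 and 17.1, and to 0.27, 0.45 and 0.41 without Kdr. Each of these sums is thus close to the reading of 1 probe.

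Most adipocyte markers were higher at each step. The list shares Cfd with the complement list and Cebpa with the regulators. Of 12, 7, 11 and 12 were well above background at day 0, 3 and 21, and their sum was 10.12, 46.8 and 1258. Fabp4 was 19.0-fold higher at day 3 (4.25) and was at 8.23 at day 21. Adipoq had a signal of 60.5 at day 3 and 13987 at day 21, and was not well above background at day 0. Over all genes with a value, 9.32% were at least 2-fold higher and 8.54% lower at day 3, and 15.4% and 17.7% at day 21. Against day 0, 8 of the 12 adipocyte markers had passed 2-fold at day 3 and 11 at day 21. At day 3 Cfd (-0.01), Pparg (-0.21) and Slc2a4 (0.34) had not, and Lep was dim.
At day 3, 6 osteoblast markers were measured and 2 had a bound, and at day 21 6 and 4. Of 11 osteoblast markers with a named probe, 5 had passed 2-fold upward at day 3 and 7 at day 21, with 0 downward. Their sum was 1073, 1387 and 1169, of which 96.1% to 99.6% was the collagen genes Col1a1 and Col1a2, and without those it was 4.53, 16.9 and 45.7. At day 21 Ibsp, bone sialoprotein, was at least 63.7-fold higher and Alpl, alkaline phosphatase, at least 29.1-fold. Omd, osteomodulin, was 38.2-fold higher and Bglap2, an osteocalcin gene, 11.9-fold. Spp1 was at 1.74 at day 3 and 2.74 at day 21. Phex and Dmp1 were well above background at day 21 alone, with log2 bounds of 3.52 and 1.68 over day 0. The remaining markers of the list, Runx2, Sp7, Col1a1 and Col1a2, were not called 2-fold higher. Runx2 had a low signal and was at 0.12 at day 3 and -0.37 at day 21, and Sp7 was dim on every array. Col1a1 was at 0.06 and -0.47, and Col1a2 at 0.49 and 0.28. The 11 stromal markers were all well above background on each array, and their sum was 446, 738 and 953. Against day 0, 2 were at least 2-fold higher and 2 lower at day 3, and 3 and 2 at day 21, with medians of -0.09 and 0.43. Pdgfra was at 4.74 and 5.12 and Ly6a at 3.65 and 3.20, whereas Cd44 was at -1.25 and -2.62 and Itgb1 at -1.10 and -1.08. The part of each cell type in the members' differences was not tested. The day 3 array was also the only one on its slide and scan, so for day 3 the slide and the day cannot be told apart, whereas day 0 and day 21 shared a slide.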

How the data were processed

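The series measured RNA of 3 samples, 1 for each group, on Agilent 1-colour mouse arrays. The deposited files hold linear spot intensity from Feature Extraction, version 10.10.1.1 per the file headers and 12.0 per the submitters' processing notes. Per the file headers, the authors' processed signal was background-subtracted and detrended and left the arrays unscaled against each other. The value table deposited beside them repeats the same intensity (largest difference 0).

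Outlier spots were left out (200, 115 and 146 at day 0, 3 and 21, of 59305 non-control spots), and no non-control spot was saturated. Log2 signals were scaled to the array's 75th percentile, and spots of a probe were averaged. A probe was well above background when at least 50% of its usable spots were. Of 55664 probes, 26755 matched 1 gene through accessions in a RefSeq table (GRCm38.p6), and 28909 stayed unnamed. A gene was read by its probe with the highest mean. A gene counted as measured when well above background on both arrays, as a bound when on 1, and was called at 2-fold. With 1 array a group, the number of arrays limits the precision.

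Python 3.11.15, numpy 2.4.6, pandas 2.3.3 and limma 3.58.1 (normexp, offset 50, on the median signal) were used. Simulated data with 12455 genes, made for day 3 against day 0, tested the 2-fold call. Of genes set 3-fold apart 100% were called, of those set 1.5-fold apart 0.85%, and on average 0 unaltered genes. The noise was only the spread between spots of a probe on an array (SD 0.12 in log2). Each gene was set well above background on both arrays. Variation between arrays, slides or cultures was not simulated, so the rate of false calls in the real comparisons cannot be read from it.

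The members and all lists were chosen with earlier results of these data known. All 9 members are named, with the pathway genes at least 2-fold different or dim throughout, up to 4 genes a list of those with the largest differences, and the 5 genes nearest to the members' median pattern and 3 nearest to each of C3, Serping1 and Cd55. Some pathway genes are counted but not reported here by name. Some further list members are named for context, chosen after their values were seen.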

Additional observations from a re-analysis of the deposited data

How the results depend on the processing

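Other settings were the 75th percentile over probes well above background on every array, no scaling, quantile normalization, spike-in scaling, normexp, outlier spots kept, the mean over a gene's probes, well above background on all 3 arrays, no filter on dim probes and a 3-fold threshold. None changed the sign of a median over the members, and no setting moved the counts of members or pathway genes called higher by over 1.5 times. Of these counts and medians across settings, 125 kept within 1.5 times the main count or within the technical SD of a difference (0.17) of the main median, and 22 did not. Within that tolerance, the pathway genes called higher at day 21 against day 0, members included (main 21), ran from 14 with normexp to 27 with no filter, and those at day 3 (main 18) from 13 with normexp or spike-in scaling to 20 with no filter. The median over the members for day 3 against day 0 (main 2.78) was 2.07 on the spike-in scale, 2.15 with normexp and 3.01 with no filter. For day 21 against day 0 (main 4.71) it was 4.91 with the percentile over detected probes, 4.45 on the spike-in scale, 4.04 with normexp and 5.29 with no filter. For day 21 against day 3 (main 2.28) it was 2.72 on the spike-in scale and 2.09 over genes well above background on all 3 arrays, where Cfb drops out. On the spike-in scale 1 member, Cd59a, was called lower at day 3.

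Pathway genes called lower are few. For day 3 against day 0 (main 1) there were 4 on the spike-in scale, 0 with normexp, 0 when all 3 arrays had to be above background and 2 with no filter. For day 21 against day 0 (main 2) there was 1 with quantile normalization, normexp, all 3 arrays above background or a 3-fold threshold. For day 21 against day 3 (main 3) there was 1 with no scaling, spike-in scaling or normexp, and 0 at 3-fold. The cause was not tested, save that stricter filters test fewer genes. The spike-in scale moved the median of all genes by -0.71, -0.26 and 0.44 in the 3 comparisons, and 11.4%, 32.5% and 83.6% of its calls were higher, against 52.2%, 46.5% and 52.2% in the main setting. With the percentile over detected probes these shares were 59.9%, 58.6% and 62.7%, and with no scaling the last was 63.9%. C3 at day 3 was 5.15 as the mean of its probes. Low signals limit Cfb and C4b at day 0: with normexp their day 3 differences were 3.01 and 3.69. No paired analysis was possible because each group had 1 array.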

Other observations

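Serum amyloid genes, acute-phase proteins of lipoproteins, differed from one another on these arrays. Saa3, the form made outside the liver, had a signal of 2.76 at day 0, which was not well above background, 442 at day 3 and 707 at day 21, a difference at day 3 of at least 42.8-fold. Saa1 was 1.25 and 0.87 from day 0. Orm1 and Orm2, acid glycoproteins, were dim at day 0 and day 3 and reached 428 and 629 at day 21. Cp, ceruloplasmin, a copper carrier, had 96.0, 2277 and 7139, or 4.55 and 6.07 from day 0.

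The niche gene Cxcl12, a chemokine of marrow stroma, was level at day 3 (-0.09) and 2.31 higher at day 21 than at day 0. Cd44, a hyaluronan receptor of cultured MSCs, fell by 1.25 by day 3 and by 2.62 by day 21, each against day 0. Ly6a, the stem cell antigen Sca-1, had 3484, 44365 and 35503, or 3.65 and 3.20 from day 0.

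The 3 probes of Itgam disagreed. The brightest read 9633, 8333 and 15404 at day 0, 3 and 21, another read 22.7, 30.1 and 12.8, and the last was dim on every array. Csf3r, the G-CSF receptor, likewise had a signal of 13172 at day 0 while Ptprc was dim. These values are given without a cause, which was not tested.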
